A study of Homo sapiens with 9 samples.

Results

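Oxidative phosphorylation subunits were followed in H1299, a human cell line from a non-small cell lung carcinoma, after depletion of FIBP, an intracellular protein first described as a binding partner of fibroblast growth factor 1. The genes were taken by name, as every row called NDUFA, NDUFB, NDUFC, NDUFS or NDUFV with a number, SDHA to SDHD, UQCR genes, CYC1, COX4 to COX8 genes, ATP5 genes, and the protein genes of the mitochondrial genome, without names that carry a pseudogene ending. This gave 101 of the 60966 genes in the files, of which 13 are encoded in the mitochondrion and 88 in the nucleus. By complex, the mitochondrial genes were 7 of complex I, 1 of complex III, 3 of complex IV and 2 of complex V, and the nuclear genes were 37 of complex I, 4 of complex II, 10 of complex III, 17 of complex IV and 20 of complex V. The names place NDUFA4 with complex I although its protein is now counted with complex IV, and leave out NDUFAB1.

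Cells were transfected for 48 h with a Scramble control siRNA, Si-FIBP#1 or Si-FIBP#2, which target different stretches of the FIBP mRNA, and poly(A) RNA of 3 samples a group was sequenced. All 9 samples therefore carried a transfected siRNA, and no untransfected cells were measured. The groups are 1 cell line, and the labels do not say whether the 3 samples of a group were separate cultures. The p-values therefore set differences between groups against the spread among samples of a group, which may be only technical.

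Oxidative phosphorylation passes electrons from NADH and succinate through complexes I to IV to oxygen, pumps protons across the inner mitochondrial membrane, and uses the proton gradient to make ATP at complex V. Complexes I, III, IV and V are built from proteins of both genomes, whereas complex II is wholly nuclear. The mitochondrial genome is transcribed as long RNAs from both strands, which are cut, mostly at tRNAs, into 2 rRNAs and the mRNAs. Most of those mRNAs carry short poly(A) tails and can be captured in a poly(A) library, whereas MT-ND6 mRNA is known to lack such a tail. Nuclear subunits are translated in the cytosol and imported, and the factors NRF1, GABP and YY1 are known to bind many of their promoters.

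The target stretches of the 2 siRNAs are shown because the results of both are set side by side throughout. They lie in the FIBP coding sequence on the minus strand of chromosome 11 (GRCh38), in exon 4 of 10 at chr11:65886351-65886369 for Si-FIBP#1 and in exon 5 at chr11:65885634-65885652 for Si-FIBP#2. Capitals mark the 7 bases that pair with bases 2 to 8 of the guide strand, its seed.
Si-FIBP#1 target: ggtggacaataTTCAGCAa
Si-FIBP#2 target: ccatcgtcttcTTTGCTAa

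FIBP itself was measured at 88.4, 79.5 and 77.7 FPKM (fragments scaled to transcript length and to library depth) in the Scramble samples. With Si-FIBP#1 it was at 7.49, 7.77 and 4.30 FPKM, and under Si-FIBP#2 at 7.13, 5.92 and 8.21 FPKM. The log2 fold change of FPKM + 1, the scale of every fold change here, was -3.50 ± 0.18 (SE) and -3.37 ± 0.18 (adjusted p = 9.4e-07 and 1.42e-06 by limma, n = 3 a group, Benjamini-Hochberg over the 14985 genes tested). FIBP did not differ between the siRNAs beyond its error (0.13 ± 0.18, adjusted p = 0.686). Estimated depth was 20150000 to 24000000 fragments a sample, with 13894 to 14715 genes at 1 FPKM or more, and samples correlated at 0.983 to 0.988 within groups and 0.956 to 0.983 between them. Of the markers checked for this line, KRT8, KRT18, VIM and CDH2 were present in every sample, while KRT19 and EPCAM stayed at or under 0.29 FPKM. KRT8, KRT18 and VIM fell and CDH2 rose under both siRNAs. The log2 fold changes under Si-FIBP#1 and Si-FIBP#2 were -1.19 and -1.45 for KRT18, -0.53 and -0.49 for KRT8, -0.49 and -0.72 for VIM, and 0.35 and 0.43 for CDH2 (adjusted p of 0.00512 or less by limma). Of 11 markers of blood, endothelial, liver and connective tissue cells, 10 stayed at or under 1.59 FPKM, and CD68, also a general lysosomal protein, was at 31.0 to 67.0 FPKM and highest under Si-FIBP#2, and the part of these markers in the results was not tested.

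All 13 mitochondrially encoded subunit mRNAs were higher under Si-FIBP#1 than in Scramble, and 10 of the 13 were higher under Si-FIBP#2. In the same comparisons 27.8% and 31.1% of all genes tested were called higher. None of the 13 was called lower by limma, with 0 also at an unadjusted p below 0.05. The median log2 fold change of the 13 was 0.47 under Si-FIBP#1 and 0.30 under Si-FIBP#2, against 0.07 and 0.11 over all genes tested. Median ratio scaling, which divides each sample by its median ratio to the others, gave 0.39 and 0.18, with 13 and 8 genes called. All of these were higher, and on that scale 22.5% and 22.3% of all genes tested were called higher. With Si-FIBP#1 all 3 samples lay above all 3 Scramble samples for 13 of the 13 genes, and under Si-FIBP#2 for 11, where 34.5% and 36.1% of all genes tested did so. Bulk RNA gives the amount per library, so that fewer cells of a type and less RNA per cell cannot be told apart here, nor can more mitochondrial genomes and more RNA per genome.

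The 3 catalytic core subunits of complex IV, cytochrome c oxidase, gave the highest median of the mitochondrial sets, 0.61 under Si-FIBP#1 and 0.33 under Si-FIBP#2. MT-CO3 was measured at 7108, 6926 and 7084 FPKM in Scramble, at 11866, 12691 and 11984 FPKM under Si-FIBP#1 and at 9519.8, 10259.6 and 9849 FPKM under Si-FIBP#2. The 3 groups did not overlap, and Si-FIBP#2 lay between Scramble and Si-FIBP#1. The log2 fold change of MT-CO3 was 0.79 ± 0.04 under Si-FIBP#1 (adjusted p = 8.91e-07 by limma) and 0.49 ± 0.04 under Si-FIBP#2 (adjusted p = 1.49e-05). MT-CO2, which takes electrons from cytochrome c, was at 9121 to 9869.5 FPKM in Scramble, at 13810 to 15065 FPKM under Si-FIBP#1 and at 11255 to 12432 FPKM under Si-FIBP#2. MT-CO1, the subunit where oxygen is reduced, was at 7514 to 7747 FPKM in Scramble, at 10656 to 11552 FPKM under Si-FIBP#1 and at 8908 to 9505 FPKM under Si-FIBP#2. Their log2 fold changes were 0.61 and 0.55 under Si-FIBP#1 and 0.33 and 0.27 under Si-FIBP#2 (SE 0.04 to 0.05), and again the 3 groups were separate and Si-FIBP#2 lay in the middle.

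Complex V, the ATP synthase, takes from this genome MT-ATP6, part of its proton channel, and MT-ATP8, a small membrane subunit. Both lie on a single bicistronic mRNA with overlapping reading frames. MT-ATP6 was at 5853, 5701 and 5927 FPKM in Scramble, at 8602, 8795 and 8199 FPKM under Si-FIBP#1 and at 6881, 7608 and 7123 FPKM under Si-FIBP#2. Its log2 fold changes were 0.55 ± 0.05 and 0.30 ± 0.05 (adjusted p = 1.2e-05 and 0.000461 by limma), and those of MT-ATP8 were 0.56 ± 0.05 and 0.31 ± 0.05. The 2 genes of this mRNA thus moved by nearly the same amount, although their levels, 20102 to 20957 FPKM for MT-ATP8 in Scramble, cannot be set beside each other. MT-ATP8 at 207 nt and MT-ND4L at 297 nt are shorter than the library's 300 bp fragments, and how the length scaling of the deposited values treats such short transcripts is not known.

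The 7 mitochondrial subunits of complex I, the proton-pumping membrane arm of the NADH dehydrogenase, had a median log2 fold change of 0.39 under Si-FIBP#1 and 0.15 under Si-FIBP#2. All 7 rose under Si-FIBP#1 and 4 rose under Si-FIBP#2. MT-ND6, the only subunit gene on the light strand, was at 1789, 1712 and 1768 FPKM in Scramble, at 2596, 2598 and 2660.0 FPKM under Si-FIBP#1 and at 2428, 2705 and 2417 FPKM under Si-FIBP#2. Here Si-FIBP#1 and Si-FIBP#2 overlapped and both lay clear of Scramble (0.58 ± 0.05 and 0.52 ± 0.05, adjusted p = 1.17e-05 and 2.55e-05 by limma). Strand-specific counting is not stated, so reads of MT-ND6 and reads antisense to it cannot be told apart. MT-ND5 gave 0.47 ± 0.04 and 0.39 ± 0.04, and MT-ND3 gave 0.42 ± 0.05 and 0.32 ± 0.05.

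MT-ND1 rose by 0.39 ± 0.05 and 0.15 ± 0.05, the latter at an adjusted p of 0.0347 by limma that was above 0.05 in each of the fits without Scramble replicate 2 or 3 or without Si-FIBP#2 replicate 2 or 3 (0.0754 to 0.122), with no filter on low genes (0.122) and with the 2 groups alone (0.066). MT-CYB, the cytochrome b of complex III, rose by 0.39 ± 0.05 and 0.16 ± 0.05, and the second value missed 0.05 in the same 4 fits that leave out a sample (0.0503 to 0.0945) and with no filter (0.134). Median ratio scaling also ended both calls (adjusted p = 0.63 and 0.558). The 3 genes that were not called under Si-FIBP#2 were MT-ND2 (0.08 ± 0.04, adjusted p = 0.109), MT-ND4 (0.09 ± 0.06, adjusted p = 0.236) and MT-ND4L (0.08 ± 0.05, adjusted p = 0.241). The last 2 share a bicistronic mRNA, and under Si-FIBP#1 both gave 0.29. MT-ND2 was at 3216, 3198 and 3244 FPKM in Scramble, at 4273, 4213 and 3989.8 FPKM under Si-FIBP#1 and at 3299.6, 3467 and 3439.7 FPKM under Si-FIBP#2, so Si-FIBP#2 sat just above Scramble without overlap.

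**Figure D1:**
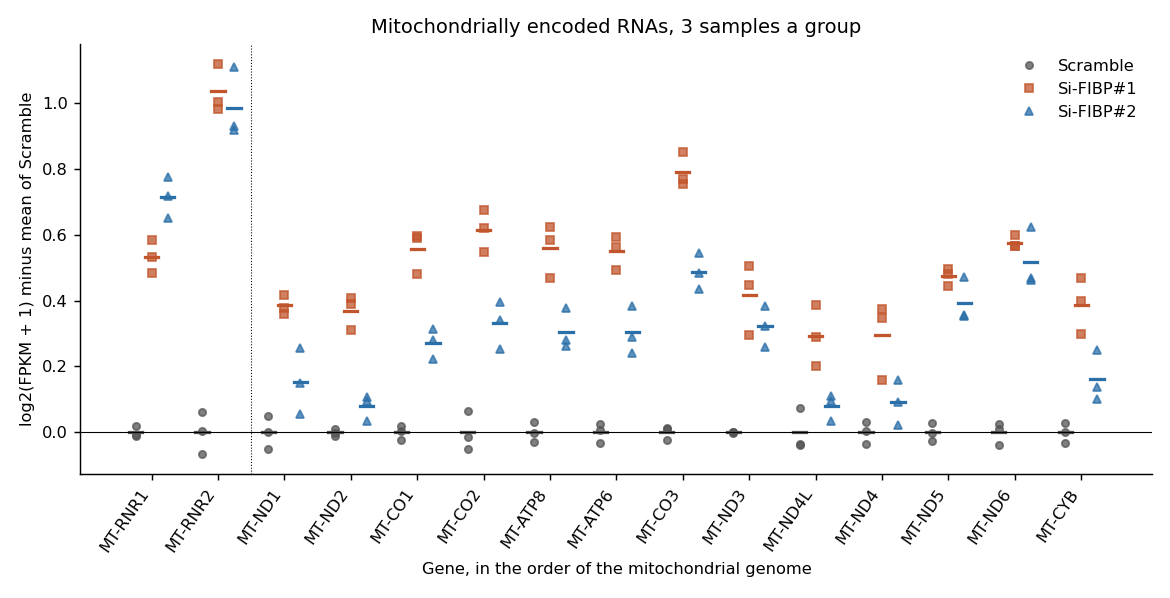
Each point is log2(FPKM + 1) of 1 sample minus the mean of the 3 Scramble samples (y axis), for the 2 mitochondrial rRNAs and the 13 subunit genes in genome order (x axis), with short lines at group means. Si-FIBP#1 samples lie above every Scramble sample at all 15 genes, Si-FIBP#2 samples are close to Scramble at MT-ND2, MT-ND4L and MT-ND4, and the subunit with the largest difference is MT-CO3.

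The 2 mitochondrial rRNAs, MT-RNR1 of the small and MT-RNR2 of the large mitoribosomal subunit, were also higher with both siRNAs. MT-RNR2 was at 838, 879 and 915 FPKM in Scramble, at 1758, 1732 and 1906 FPKM under Si-FIBP#1 and at 1892, 1656 and 1672 FPKM under Si-FIBP#2 (log2 fold change 1.03 ± 0.06 and 0.98 ± 0.06, adjusted p = 1.94e-06 and 3.05e-06 by limma). MT-RNR1 was at 567 to 580.2 FPKM in Scramble, at 799.6 to 858 FPKM under Si-FIBP#1 and at 898 to 979 FPKM under Si-FIBP#2 (0.53 ± 0.04 and 0.71 ± 0.04). MT-RNR2 did not differ between the siRNAs beyond its error (-0.05 ± 0.06, adjusted p = 0.652). MT-RNR1 was higher under Si-FIBP#2 than under Si-FIBP#1 (0.18 ± 0.04, adjusted p = 0.022), a call that was lost without Si-FIBP#1 replicate 1 or 3 or Si-FIBP#2 replicate 1 or 3 (0.0543 to 0.0794), under median ratio scaling (0.103), with no filter on low genes (0.0632) and with the 2 groups alone (0.0638). The levels of both rRNAs in a poly(A) library reflect what the selection captured.

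A transcript of 4332 nt that the submitters' assembly placed at MT-CO1, about 3 times the 1542 nt of the gene itself, held 8.64% ± 0.09 of the MT-CO1 FPKM in Scramble (SD, n = 3), 9.49% ± 0.41 under Si-FIBP#1 and 12.3% ± 0.79 under Si-FIBP#2. The lowest Si-FIBP#2 sample (11.7%) exceeded the highest Si-FIBP#1 sample (9.73%). Nuclear copies of mitochondrial genes could take reads from them, and the summed FPKM of all such named pseudogenes was 0.104%, 0.103% and 0.104% of the mitochondrial sum in the 3 groups.

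As a share of all FPKM, the 13 mitochondrial genes made up 10.2%, 9.95% and 10.2% in the Scramble samples. With Si-FIBP#1 the share was 13.9%, 14.3% and 14.0%, and under Si-FIBP#2 it was 11.9%, 12.8% and 12.2%. The groups were separate, at means of 10.1% ± 0.15, 14.1% ± 0.19 and 12.3% ± 0.48 (SD, n = 3). The 88 nuclear genes together held 2.64% ± 0.02, 2.80% ± 0.08 and 3.01% ± 0.05, again without overlap, and here Si-FIBP#2 was highest. Without the 2 shortest genes the mitochondrial share was 6.37% ± 0.09, 8.996% ± 0.19 and 7.88% ± 0.31. With all 13 genes and each FPKM multiplied by the full transcript length, which does not give fragments where the deposited values used another length, it was 4.53% ± 0.06, 6.54% ± 0.20 and 5.62% ± 0.18. The order Scramble, Si-FIBP#2, Si-FIBP#1 held under each of these 3 ways of summing.

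**Figure D2:**
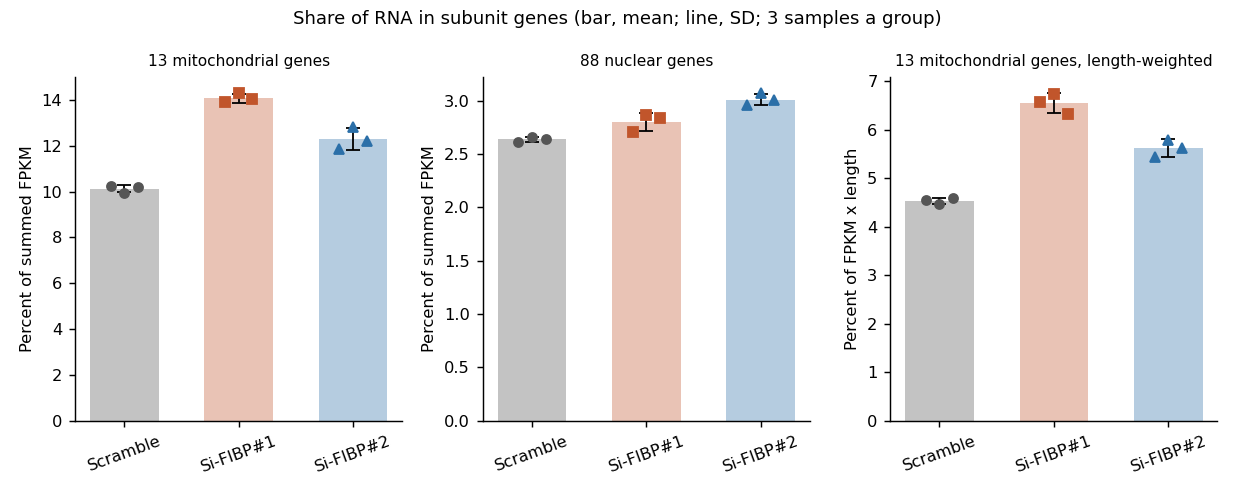
Percent of the summed FPKM held by the 13 mitochondrial and 88 nuclear genes, and the percent of FPKM times transcript length held by the mitochondrial genes (y axes), in the 3 groups (x axes), with a point for each of 3 samples, bars for means and lines for SD. The mitochondrial share goes from 10.1% in Scramble to 14.1% under Si-FIBP#1 and 12.3% under Si-FIBP#2, whereas the nuclear share is highest, at 3.01%, under Si-FIBP#2.

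Among the 88 nuclear subunit genes, 81 reached 1 FPKM in at least 3 samples and were tested. With Si-FIBP#1, 37 were higher and 5 lower, where 27.8% of all genes tested were called higher and 19.9% lower. With Si-FIBP#2, 47 were higher and 4 lower, where 31.1% of all genes were called higher and 17.7% lower. Counting both directions, 42 and 51 of the 81 were called, where 47.7% and 48.8% of all genes tested were. All 3 siRNA samples lay above Scramble for 42 and 55 of them and below it for 5 and 6, where 34.5% and 36.1% of all genes lay above and 24.3% and 21.2% below. The median log2 fold change of the 81 was 0.15 and 0.22. Nearly all of these genes are strongly expressed, and of the 80 with a mean of 20 FPKM or more over the 9 samples 37 and 47 were higher, whereas of all 4972 genes at that level 30.8% and 33.4% were called higher and 28.0% and 26.9% lower. Median ratio scaling lowered the median of all genes by 0.07 under Si-FIBP#1 and by 0.10 under Si-FIBP#2. On that scale the median of the 81 was 0.074 and 0.093, beside 0.005 and 0.006 over all genes tested. Under Si-FIBP#1 29 nuclear genes were then higher and 9 lower, where 22.5% and 24.0% of all genes were. Under Si-FIBP#2 30 were higher and 8 lower, where 22.3% and 24.4% of all genes were. The share of calls over all genes that were higher went from 58.4% and 63.7% to 48.4% and 47.7%. Of the nuclear genes named by rule, for which the alternatives were run, median ratio scaling ended the calls of NDUFB9 and SDHA under Si-FIBP#1 (adjusted p = 0.247 and 0.0663 by limma). Under Si-FIBP#2 it ended those of NDUFA7, COX4I1, COX5A, COX7A2, COX7C, ATP5MC2, ATP5MC3, ATP5ME, ATP5PD and TOMM20 (adjusted p = 0.0532 to 0.985).

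Only 1 of the 94 subunit genes tested passed an adjusted p below 0.05 together with a 2-fold change, which 5.66% and 5.05% of all genes tested passed under Si-FIBP#1 and Si-FIBP#2. This was COX7B2, a homologue of the complex IV subunit COX7B that is known mainly from testis. COX7B2 was at 29.5, 31.9 and 29.3 FPKM in Scramble, at 65.2, 79.6 and 79.2 FPKM under Si-FIBP#1 and at 70.7, 85.9 and 71.6 FPKM under Si-FIBP#2. Both siRNA groups lay far above Scramble and overlapped each other (1.27 ± 0.10 and 1.30 ± 0.10, adjusted p = 7.33e-06 and 7.42e-06 by limma). COX7B, the widely expressed form, was at 69.1 to 84.8 FPKM in Scramble and 75.9 to 90.1 FPKM in the siRNA samples (0.04 ± 0.08 and 0.12 ± 0.08, neither called). COX7B2 was thus below every COX7B value in Scramble, whereas in the siRNA groups, at 65.2 to 85.9 FPKM, it overlapped COX7B at 75.9 to 90.1 FPKM.

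Complex I has the most nuclear members. Of its 37 nuclear genes 22 were higher and 0 lower under Si-FIBP#1 by limma, with 0 lower also at an unadjusted p below 0.05, and 23 were higher and 1 lower under Si-FIBP#2, with medians of 0.23 and 0.26. Over all genes tested the shares higher and lower were 27.8% and 19.9% under Si-FIBP#1, and 31.1% and 17.7% under Si-FIBP#2. The 7 core subunits, which carry the flavin and iron-sulphur clusters and were conserved from bacteria, had 2 and 4 genes higher. The 30 accessory subunits had 20 and 19 higher. NDUFC1, an accessory subunit of the membrane arm, was at 64.4, 73.8 and 72.7 FPKM in Scramble, at 97.7, 119.9 and 112 FPKM under Si-FIBP#1 and at 99.7, 103 and 107 FPKM under Si-FIBP#2 (0.63 ± 0.08 and 0.55 ± 0.08, adjusted p = 0.000177 and 0.000411). The siRNA groups overlapped each other and stood clear of Scramble. NDUFB1 and NDUFB9, the most abundant nuclear members of complex I in Scramble at means of 459 and 445 FPKM, rose by 0.38 ± 0.07 and 0.15 ± 0.05 under Si-FIBP#1 and by 0.38 ± 0.07 and 0.26 ± 0.05 under Si-FIBP#2. The NDUFB9 call under Si-FIBP#1 was lost without Scramble replicate 1 or 3 or Si-FIBP#1 replicate 2 (adjusted p = 0.0632 to 0.105). NDUFA7 was uneven in Scramble, at 77.0, 71.3 and 36.6 FPKM, and its call under Si-FIBP#2 (0.71 ± 0.25, adjusted p = 0.0377) was lost without Scramble replicate 3 (0.38, adjusted p = 0.0606), without Si-FIBP#1 replicate 3 (0.0522) or without any Si-FIBP#2 sample (0.072 to 0.0903).

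NDUFB10, an accessory subunit of the membrane arm, went the other way under Si-FIBP#2. It was at 189, 170.0 and 177 FPKM in Scramble, at 202, 200.3 and 167 FPKM under Si-FIBP#1 and at 128, 112 and 118 FPKM under Si-FIBP#2. All 3 Si-FIBP#2 samples lay below every other sample. The log2 fold change was -0.58 ± 0.08 against Scramble (adjusted p = 0.000335 by limma) and -0.66 ± 0.08 against Si-FIBP#1 (adjusted p = 0.00118), and under Si-FIBP#1 it was 0.08 ± 0.08 (adjusted p = 0.445). Its most abundant annotated transcripts had means of 105 and 57.5 FPKM in Scramble and of 60.0 and 43.2 FPKM under Si-FIBP#2. NDUFB7, another membrane arm subunit, gave 0.04 ± 0.05 and -0.09 ± 0.05 and was not called.

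Complex II, the succinate dehydrogenase of the citric acid cycle, has 4 subunits, which went different ways. SDHD, a membrane anchor, was at 109, 106 and 106 FPKM in Scramble, at 107, 116 and 122.7 FPKM under Si-FIBP#1 and at 57.6, 83.3 and 60.3 FPKM under Si-FIBP#2. The Si-FIBP#2 samples lay below all others, with replicate 2 less far down than the other two. The difference was -0.68 ± 0.12 against Scramble and -0.79 ± 0.12 against Si-FIBP#1 (adjusted p = 0.00117 and 0.00304 by limma), and 0.10 ± 0.12 between Si-FIBP#1 and Scramble (adjusted p = 0.506). SDHC, the other anchor, rose from 99.4 to 103.5 FPKM in Scramble to 124 to 134 FPKM under Si-FIBP#1 and 137 to 156 FPKM under Si-FIBP#2 (0.34 ± 0.06 and 0.50 ± 0.06, adjusted p = 0.000912 and 9.28e-05). The 2 anchors of this complex therefore differed in direction under Si-FIBP#2. SDHA, the flavoprotein, rose by 0.20 ± 0.05 and 0.28 ± 0.05. SDHB, the iron-sulphur subunit, gave -0.08 ± 0.05 and 0.03 ± 0.05 and was not called.

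Because SDHD and NDUFB10 fell under Si-FIBP#2 and were not called under Si-FIBP#1, the members' most abundant annotated transcripts were searched on their sense strand for the seed matches shown above. TTTGCTA, the match to Si-FIBP#2, was in 6 of 94 members and in 16.1% of 14607 genes tested that had such a transcript. TTCAGCA, the match to Si-FIBP#1, was in 9 of 94 members and in 27.2% of the same genes. Whole transcripts were searched, and these shares were not matched for transcript length. Among the 9 were ATP5F1C, called lower under Si-FIBP#1, and SDHC and UQCRB, called higher, while COX6B1, COX7B, UQCRC1 and UQCRC2 were not called. The others were ATP5MPL and ATP5MF-PTCD1, whose values are not given here. ATP5F1C has no seed match to Si-FIBP#2 in its main transcript and fell under Si-FIBP#2 as well (-0.63 ± 0.07, beside -0.43 ± 0.07 under Si-FIBP#1). Under Si-FIBP#1 27.8% of all genes tested were called higher and 19.9% lower. SDHD has a match of 8 bases in the coding part of its last exon, exon 4 of 4, within chr11:112094894-112094923 on the plus strand (GRCh38). NDUFS3, a core subunit of complex I, shares the longest run of any member with the Si-FIBP#2 target, 14 bases, in exon 6 of 7 within chr11:47582361-47582390 on the plus strand. Both stretches of 30 bases are shown with the matched 8 bases in capitals.
SDHD: cctttgctgggCTTTGCTAtttcaactatc
NDUFS3: tttggagtcttCTTTGCTAaccaccctgat
NDUFS3 was at 119, 119.8 and 117 FPKM in Scramble and at 122, 132 and 130.2 FPKM under Si-FIBP#2 (0.11, adjusted p = 0.074), and all 3 Si-FIBP#2 samples lay above Scramble. The 8-base match is also in the 3′ UTR of ATP5MG, a subunit of complex V, which rose under Si-FIBP#2 (0.30 ± 0.07, adjusted p = 0.00388). The 7-base match alone is in SDHC, COX5A and COX7C, all called higher under Si-FIBP#2, so that of the 6 members with a match 4 were called higher, SDHD was called lower and NDUFS3 was not called. Of all genes tested 31.1% were called higher and 17.7% lower, and COX5A and COX7C lost the call under median ratio scaling (adjusted p = 0.15 and 0.165). NDUFB10 has no seed match in its main transcript. A match of letters is a description and not a site of action, and its part in the fall of SDHD or ATP5F1C was not tested.

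Complex III, the cytochrome bc1 complex, had 5 nuclear genes higher and 1 lower under Si-FIBP#1 and 4 higher and 0 lower under Si-FIBP#2 among 9 tested by limma, the 0 holding also at an unadjusted p below 0.05. Of all genes tested 27.8% were higher and 19.9% lower under Si-FIBP#1, and 31.1% and 17.7% under Si-FIBP#2. UQCRB, which sits near the ubiquinone site, was at 284, 327 and 349 FPKM in Scramble, at 481, 505 and 491 FPKM under Si-FIBP#1 and at 479.7, 457 and 455 FPKM under Si-FIBP#2 (0.62 ± 0.07 and 0.54 ± 0.07, adjusted p = 6.85e-05 and 0.00017 by limma). UQCR11, the smallest subunit, was at 31.3 to 31.7 FPKM in Scramble, 44.1 to 53.8 FPKM under Si-FIBP#1 and 42.5 to 50.4 FPKM under Si-FIBP#2 (0.60 ± 0.08 and 0.56 ± 0.08). For both genes the siRNA groups stood clear of Scramble. CYC1, the cytochrome c1 that hands electrons to cytochrome c, was at 228, 227 and 220.2 FPKM in Scramble, at 170.2, 188 and 163 FPKM under Si-FIBP#1 and at 226, 224 and 221 FPKM under Si-FIBP#2. It fell under Si-FIBP#1 (-0.37 ± 0.05, adjusted p = 0.000354), was at the Scramble level under Si-FIBP#2 (-0.01 ± 0.05, adjusted p = 0.915), and differed between the siRNAs by 0.36 ± 0.05 (adjusted p = 0.00252). UQCRH, the most abundant member at a Scramble mean of 726 FPKM, and the core protein UQCRC2 were not called with either siRNA.

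**Figure D3:**
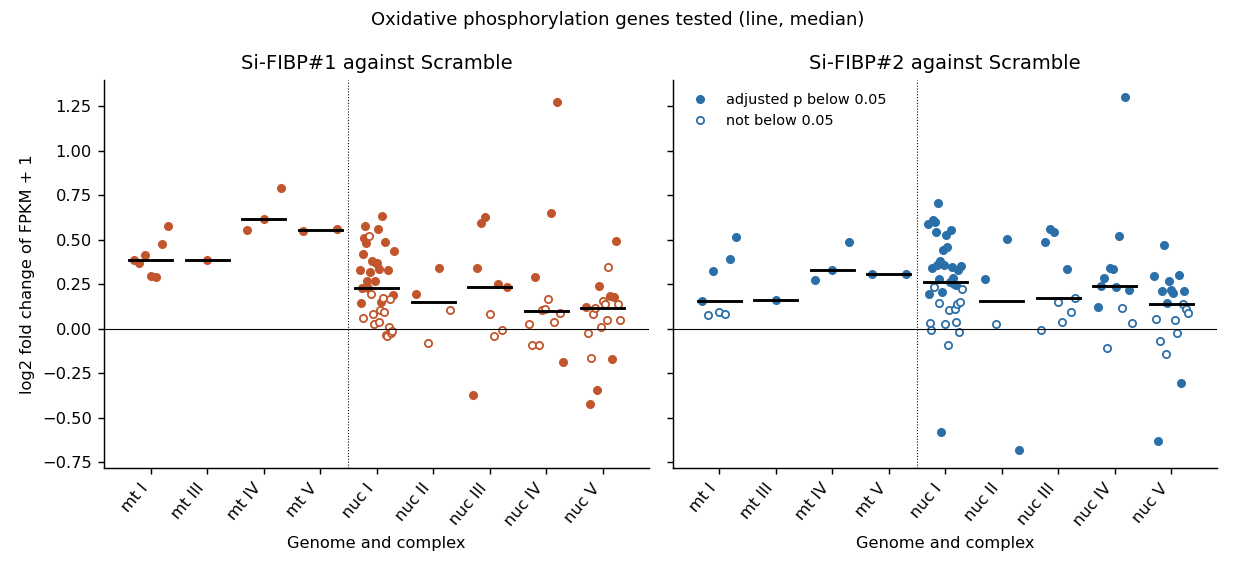
Log2 fold change of FPKM + 1 against Scramble (y axes) for each subunit gene tested, by genome (mt or nuc) and complex (x axes), for Si-FIBP#1 on the left and Si-FIBP#2 on the right, filled where the adjusted p is below 0.05, with a line at each median. The mitochondrial sets shift down from left to right, nuclear complex IV shifts up, and the points that stand apart are COX7B2 at 1.27 and 1.30 and, under Si-FIBP#2, SDHD at -0.68, NDUFB10 at -0.58 and ATP5F1C at -0.63.

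In complexes I, IV and V, though not in complex III, the nuclear and mitochondrial genes differed in which siRNA gave the larger median. The median of all genes tested was itself 0.07 under Si-FIBP#1 and 0.11 under Si-FIBP#2. In nuclear complexes I and V the step between the siRNAs did not exceed that of all genes. For complex V the nuclear medians were 0.12 under Si-FIBP#1 and 0.14 under Si-FIBP#2, and the mitochondrial medians 0.55 and 0.31. Of 17 nuclear genes of complex IV 12 were tested. Under Si-FIBP#1 3 were higher and 1 lower (median 0.10). With Si-FIBP#2 9 were higher and 0 lower by limma (median 0.24), and 0 were lower also at an unadjusted p below 0.05. The 3 mitochondrial genes of complex IV had medians of 0.61 and 0.33. All genes tested gave 27.8% higher and 19.9% lower under Si-FIBP#1, which the higher count did not exceed, and 31.1% and 17.7% under Si-FIBP#2. COX6B1, the most abundant at 1131, 1120.0 and 1092 FPKM in Scramble, was at 1196, 1239 and 1161 FPKM under Si-FIBP#1 and at 1392, 1359 and 1493 FPKM under Si-FIBP#2. It was called under Si-FIBP#2 (0.34 ± 0.04, adjusted p = 0.000205 by limma) and not under Si-FIBP#1 (0.11 ± 0.04, adjusted p = 0.0773). COX5A, which binds the matrix side of the core, was at 229 to 257 FPKM in Scramble, 217 to 241 FPKM under Si-FIBP#1 and 285 to 297 FPKM under Si-FIBP#2 (-0.09 ± 0.06 and 0.24 ± 0.06). COX8A, a small single-span subunit, was at 553.5 to 597 FPKM in Scramble, 492 to 509 FPKM under Si-FIBP#1 and 579.9 to 588 FPKM under Si-FIBP#2 (-0.19 ± 0.04, adjusted p = 0.00311, and 0.03 ± 0.04, adjusted p = 0.512). COX7A2L, which is known to help join complex III with complex IV, rose with both, from 63.5 to 74.0 FPKM in Scramble to 96.7 to 117 FPKM and 92.8 to 109 FPKM (0.65 ± 0.09 and 0.52 ± 0.09). COX7C (0.09 ± 0.05 and 0.22 ± 0.05) was called under Si-FIBP#2, and COX6A1 (-0.09 ± 0.05 and -0.11 ± 0.05) was called with neither.

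Several subunits of complex IV have a common form and a form of muscle, lung or testis. COX4I1 was at 679 to 714 FPKM in Scramble and COX4I2, its oxygen-responsive form, was listed at 0 in all 9 samples. COX6A2 was also listed at 0, COX6B2 and COX8C did not exceed 0.47 FPKM, and COX7A1 was listed at 0 in Scramble and Si-FIBP#2 and at 0.36 to 0.86 FPKM under Si-FIBP#1. These 5 were not tested, nor were UQCRHL and ATP5MGL, so H1299 cells expressed the common forms and, apart from COX7B2, none of the tissue forms above 1 FPKM. COX4I1 was called under Si-FIBP#2 (0.12 ± 0.05, adjusted p = 0.0488), a call that was lost in 8 of the 9 fits without a sample. COX7A2 gave 0.17 ± 0.06 (adjusted p = 0.0529) and 0.23 ± 0.06 (adjusted p = 0.0127).

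Complex V had 5 nuclear genes higher and 3 lower under Si-FIBP#1, and 9 higher and 2 lower under Si-FIBP#2, among 19 tested, where all genes tested gave 27.8% and 19.9%, and 31.1% and 17.7%. The share of complex V higher under Si-FIBP#1 was thus near that of all genes. ATP5F1C, the gamma subunit that forms the rotating shaft, fell with both siRNAs. It was at 176, 185 and 191 FPKM in Scramble, at 128, 138 and 144 FPKM under Si-FIBP#1 and at 127, 109 and 120.5 FPKM under Si-FIBP#2 (-0.43 ± 0.07 and -0.63 ± 0.07, adjusted p = 0.000712 and 6.77e-05 by limma). Scramble did not overlap either siRNA group. Its most abundant annotated transcript had a mean of 159 FPKM in Scramble, 96.0 FPKM under Si-FIBP#1 and 98.9 FPKM under Si-FIBP#2, while a second annotated transcript was at 14.1 ± 1.70 FPKM in Scramble, 29.8 ± 0.27 FPKM under Si-FIBP#1 and 11.1 ± 5.61 FPKM under Si-FIBP#2. ATP5PD, of the peripheral stalk, rose from 280 to 301 FPKM in Scramble to 392 to 422 FPKM under Si-FIBP#1 and 318 to 367 FPKM under Si-FIBP#2 (0.49 ± 0.06 and 0.21 ± 0.06), and the second call was lost without Scramble replicate 1 or 3 (adjusted p = 0.057 and 0.0533). ATP5MF and ATP5ME, the 2 most abundant at Scramble means of 1248 and 1105 FPKM, gave 0.05 ± 0.04 and 0.14 ± 0.06 under Si-FIBP#1, neither called. Under Si-FIBP#2 ATP5MF gave 0.05 ± 0.04 and was not called, and ATP5ME rose by 0.20 ± 0.06 (adjusted p = 0.0149), a call lost without Scramble replicate 1 or 3 or Si-FIBP#2 replicate 3 (0.0521 to 0.059).

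ATP5IF1, the inhibitor that blocks ATP hydrolysis by the enzyme, was at 229, 219.9 and 226 FPKM in Scramble, at 233, 242 and 257 FPKM under Si-FIBP#1 and at 302, 308 and 326 FPKM under Si-FIBP#2. The 3 groups did not overlap, and the rise was called under Si-FIBP#2 (0.47 ± 0.05, adjusted p = 5.54e-05 by limma) and not under Si-FIBP#1 (0.12 ± 0.05, adjusted p = 0.0781). The 3 genes ATP5MC1, ATP5MC2 and ATP5MC3 encode the same mature c-ring subunit behind different import sequences, and their calls differed. ATP5MC1 fell under Si-FIBP#1 (-0.35 ± 0.09, adjusted p = 0.0116) and was at -0.15 ± 0.09 under Si-FIBP#2. ATP5MC2 rose with both (0.24 ± 0.04 and 0.14 ± 0.04), though the second call was lost without Scramble replicate 2 or 3 or Si-FIBP#2 replicate 1 or 3 (adjusted p = 0.0514 to 0.0894). ATP5MC3 rose under Si-FIBP#2 (0.27 ± 0.06, adjusted p = 0.00328) and was at 0.01 ± 0.06 under Si-FIBP#1.

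**Figure D4:**
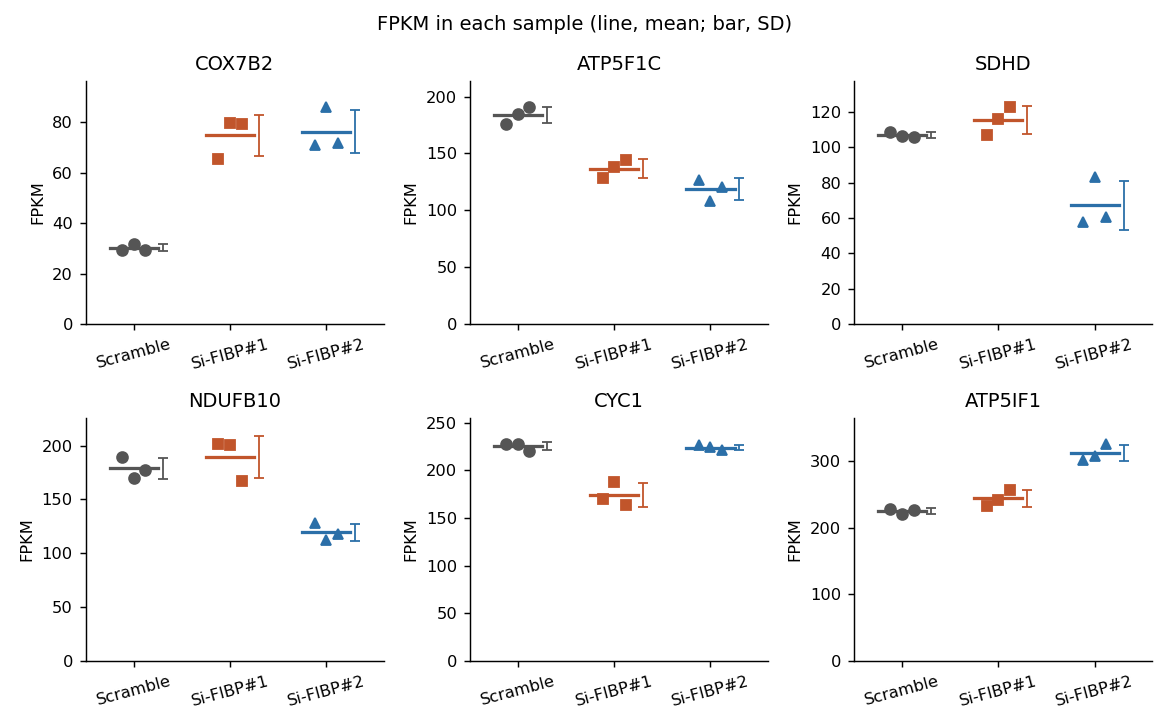
FPKM (y axes, from 0) of 6 nuclear members in the 3 samples of each group (x axes), with lines at means and bars for SD. COX7B2 is high and ATP5F1C low with both siRNAs, SDHD and NDUFB10 are low under Si-FIBP#2 only, CYC1 is low under Si-FIBP#1 only, and ATP5IF1 is highest under Si-FIBP#2.

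The difference between the siRNAs was tested directly, and 27 members were called, 11 higher and 16 lower under Si-FIBP#2 than under Si-FIBP#1, where 9.58% and 5.8% of all genes tested were called higher and lower. By limma 0 of 94 combined an adjusted p below 0.05 with a 2-fold change, as 0.561% of all genes did. Of the 16 that were lower, 10 were mitochondrial and 6 nuclear, and all of the 11 that were higher were nuclear. The 13 mitochondrial genes had a median difference of -0.23 and the 81 nuclear genes of 0.08. The count fell to 14 without Si-FIBP#1 replicate 1, to 16 without Si-FIBP#1 replicate 2 and to 14 without Si-FIBP#2 replicate 3. In each of these fits its mitochondrial part fell to 6. Calls over all genes fell in them as well, to 5.37% to 5.72% higher and 3.14% to 3.5% lower. The median of the 13 stayed between -0.27 and -0.19 in the fits without a sample. With no filter on low genes the mitochondrial calls between the siRNAs fell from 10 to 1, where 3.07% of the 32076 genes then tested were called higher and 1.82% lower. TPM scaling, which gives each sample the same sum, called 22 nuclear genes higher and 4 lower (median 0.12). On that scale 12.8% of all genes tested were called higher and 4.32% lower (median 0.08). Median ratio scaling called 7 nuclear genes higher and 8 lower (median 0.04), where 7.17% and 7.93% of all genes were (median 0.002). The balance between the siRNAs thus moved with the scaling for the nuclear members and for all genes alike. Mitochondrial genes called lower were 9 and 10 on these 2 scales.

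A difference taken within a sample hardly depends on how the samples are scaled. The mean log2 level of the mitochondrial members of a complex minus that of its nuclear members tested was computed in each sample. For complex IV it was 4.80 ± 0.06 in Scramble (SD, n = 3), 5.25 ± 0.07 under Si-FIBP#1 and 4.86 ± 0.03 under Si-FIBP#2. The Si-FIBP#2 samples (4.84 to 4.89) overlapped Scramble (4.74 to 4.86), and the Si-FIBP#1 samples (5.18 to 5.33) lay above both. The nuclear mean of complex IV weighs its 12 genes equally and includes COX7B2, which rose by 1.27 and 1.30. Without COX7B2 the difference was not computed, so the overlap may rest on that gene. Complex V gave 5.55 ± 0.04, 6.05 ± 0.02 and 5.78 ± 0.07, in 3 separate groups. Complex I gave 4.59 ± 0.04, 4.73 ± 0.06 and 4.56 ± 0.03, and complex III 4.14 ± 0.04, 4.34 ± 0.05 and 4.04 ± 0.07. The Si-FIBP#2 samples were at 4.54 to 4.59 in complex I and 3.998 to 4.12 in complex III, overlapping the Scramble ranges of 4.55 to 4.62 and 4.10 to 4.17. In all 4 complexes every Si-FIBP#1 sample was above every Scramble sample. These differences are descriptions and were not tested.

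The promoters of the nuclear genes were read for the 3 known regulator motifs. RefSeq (GRCh38.p14) gave 300 bases around the start, 250 before and 50 after, for 69 of the 88 genes, which were searched on both strands for GCGC and TGCGC set apart by any base (NRF1), CCGGAAG (GABPA) and AAGATGGCG (YY1), of which CCGGAAG can share its last 3 letters with the start of AAGATGGCG. NRF1 was in 17 promoters (24.6%, against 5.78% of 35116 promoters of the same length), GABPA in 20 (29% against 10.3%) and YY1 in 9 (13% against 1.75%), and 39 (56.5% against 16.1%) had at least 1. The 35116 promoters were taken whatever their expression or base content, and no matched set was compared. UQCR11, with 2 NRF1 and 2 GABPA matches, and SDHD, with 1 of each, are shown as a member that rose with both siRNAs and a member that fell under Si-FIBP#2. The 250 bases before the start are printed, with the matches in capitals, at chr19:1605463-1605712 on the minus strand and chr11:112086623-112086872 on the plus strand.
UQCR11: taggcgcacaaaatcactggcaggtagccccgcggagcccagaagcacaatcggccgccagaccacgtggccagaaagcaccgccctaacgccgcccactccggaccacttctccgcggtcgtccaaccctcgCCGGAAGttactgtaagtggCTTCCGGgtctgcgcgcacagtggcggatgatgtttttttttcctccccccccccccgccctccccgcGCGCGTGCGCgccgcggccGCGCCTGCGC
SDHD: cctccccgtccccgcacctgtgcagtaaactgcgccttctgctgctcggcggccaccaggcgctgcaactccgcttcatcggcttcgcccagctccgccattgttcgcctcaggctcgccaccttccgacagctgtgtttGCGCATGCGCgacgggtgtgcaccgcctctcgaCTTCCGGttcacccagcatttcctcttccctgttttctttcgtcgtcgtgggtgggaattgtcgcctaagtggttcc
Of the 38 members tested that had a motif, 16 were higher and 3 lower under Si-FIBP#1 and 18 higher and 3 lower under Si-FIBP#2 (medians 0.15 and 0.16). Of the 28 tested without one, 14 were higher and 1 lower, and 19 higher and 1 lower (medians 0.16 and 0.23). The shares over all genes tested were 27.8% higher and 19.9% lower, and then 31.1% and 17.7%. A missing match says only that the letters are not in this window.

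The regulators themselves were among 12 nuclear regulators of mitochondrial genes, of which 10 were tested. By limma 0 were called higher, with 0 and 1 higher at an unadjusted p below 0.05, while 3 were lower under Si-FIBP#1 and 4 were lower under Si-FIBP#2. Of all genes tested 27.8% and 31.1% were called higher and 19.9% and 17.7% lower. GABPB1, the activating partner of GABPA, was at 13.6, 15.3 and 13.5 FPKM in Scramble, at 7.81, 10.6 and 8.10 FPKM under Si-FIBP#1 and at 7.52, 8.66 and 7.23 FPKM under Si-FIBP#2 (-0.63 ± 0.12 and -0.78 ± 0.12, adjusted p = 0.00155 and 0.000436). NRF1 was at 8.38 to 9.49 FPKM in Scramble, 6.29 to 8.04 FPKM under Si-FIBP#1 and 5.80 to 6.96 FPKM under Si-FIBP#2 (-0.28 ± 0.10 and -0.40 ± 0.10, adjusted p = 0.0464 and 0.00978), and its call under Si-FIBP#1 was lost without any 1 of Scramble replicates 1 to 3, Si-FIBP#1 replicates 1 and 2 and Si-FIBP#2 replicate 1 (adjusted p = 0.0541 to 0.152). ESRRA gave 0.12 ± 0.07 and 0.19 ± 0.07 and GABPB2 0.23 ± 0.11 and -0.02 ± 0.11, none called. GABPA fell under Si-FIBP#2 (-0.28 ± 0.07, adjusted p = 0.0105) and YY1 was called with neither siRNA.

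Factors that copy and transcribe mitochondrial DNA were 19, of which 3 were higher and 6 lower under Si-FIBP#1 and 2 higher and 9 lower under Si-FIBP#2, beside 27.8% and 19.9%, and 31.1% and 17.7%, of all genes. DNA2, a nuclease and helicase of both genomes, was at 7.15, 8.05 and 9.78 FPKM in Scramble, at 3.58, 4.75 and 4.84 FPKM under Si-FIBP#1 and at 4.21, 3.37 and 3.94 FPKM under Si-FIBP#2 (-0.79 ± 0.14 and -0.94 ± 0.14). MGME1, an exonuclease of mitochondrial DNA, was at 18.2 to 19.2 FPKM in Scramble, 8.72 to 10.8 FPKM under Si-FIBP#1 and 10.3 to 12.2 FPKM under Si-FIBP#2 (-0.91 ± 0.09 and -0.66 ± 0.09). TFAM, which packages mitochondrial DNA and starts its transcription, was at 40.3 to 43.1 FPKM in Scramble, 24.1 to 24.4 FPKM under Si-FIBP#1 and 21.6 to 25.7 FPKM under Si-FIBP#2 (-0.76 ± 0.07 and -0.79 ± 0.07, adjusted p = 1.76e-05 and 1.58e-05). TFB2M, the other initiation factor, gave -0.04 ± 0.07 under Si-FIBP#1 and fell under Si-FIBP#2 (-0.45 ± 0.07, adjusted p = 0.000558). MTERF2, which binds mitochondrial DNA, rose by 0.49 ± 0.08 and 0.41 ± 0.08. POLG, the mitochondrial DNA polymerase, was at 66.3 FPKM in Si-FIBP#1 replicate 3 and at 20.4 to 24.4 FPKM in the other 8 samples, and was not called.

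Among 24 factors that process or stabilise mitochondrial RNA, 6 were higher and 0 lower under Si-FIBP#1 by limma (1 lower at an unadjusted p below 0.05), and 5 were higher and 5 lower under Si-FIBP#2. With 27.8% of all genes higher under Si-FIBP#1 and 31.1% under Si-FIBP#2, the list's higher counts were near or under the background. HSD17B10, a component of mitochondrial RNase P, was at 106 to 114 FPKM in Scramble, 182 to 187 FPKM under Si-FIBP#1 and 138 to 160.1 FPKM under Si-FIBP#2 (0.74 ± 0.06 and 0.42 ± 0.06), and was lower under Si-FIBP#2 than under Si-FIBP#1 (-0.33 ± 0.06, adjusted p = 0.0064). MTRES1, a factor known to raise mitochondrial transcription under stress, was at 11.4 to 13.6 FPKM in Scramble, 23.6 to 25.7 FPKM under Si-FIBP#1 and 18.5 to 21.4 FPKM under Si-FIBP#2 (0.88 ± 0.08 and 0.61 ± 0.08). For both genes the groups stood apart in the order Scramble, Si-FIBP#2, Si-FIBP#1, though for MTRES1 the difference between the siRNAs missed the threshold (-0.27 ± 0.08, adjusted p = 0.0543). GRSF1, which binds RNA in mitochondrial granules (-0.15 ± 0.06 and -0.27 ± 0.06), and FASTKD5, which acts on mRNAs that no tRNA frees (-0.14 ± 0.06 and -0.36 ± 0.06), were lower under Si-FIBP#2 than with Scramble, and the GRSF1 call was lost with annotated transcripts alone (adjusted p = 0.143).

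Assembly factors are needed to build the complexes and are not part of them. Of 59 tested, 29 were higher and 6 lower under Si-FIBP#1 and 26 higher and 5 lower under Si-FIBP#2, with medians of 0.18 and 0.14. All genes tested had medians of 0.07 and 0.11, with 27.8% higher and 19.9% lower under Si-FIBP#1 and 31.1% higher and 17.7% lower under Si-FIBP#2. Of 18 for complex I, 7 were higher and 3 lower and then 5 higher and 2 lower, among them NDUFAF1 (0.86 ± 0.15 and 0.71 ± 0.15) and DMAC2 (0.51 ± 0.07 and 0.44 ± 0.07) on the higher side, and ACAD9 (-0.42 ± 0.06 and -0.36 ± 0.06) on the lower. NDUFAF8 fell under Si-FIBP#2 (-0.44 ± 0.12), a call lost without Scramble replicate 2 (adjusted p = 0.0542). Of 10 for complexes II and III, 6 were higher and 0 lower and then 7 higher and 1 lower by limma, the 0 holding also at an unadjusted p below 0.05. SDHAF4 (0.79 ± 0.15 and 0.62 ± 0.15) and SDHAF1 (0.39 ± 0.10 and 0.53 ± 0.10) act on the catalytic subunits of complex II, and BCS1L, which inserts the Rieske protein into complex III, fell under Si-FIBP#2 (-0.33 ± 0.09). LYRM7 of the same list, and TMEM70 and TMEM242 of the list for complex V, were not called with either siRNA.

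Of 26 for complex IV, 13 were higher and 3 lower under Si-FIBP#1 and 11 higher and 2 lower under Si-FIBP#2, where 27.8% and 19.9%, and 31.1% and 17.7%, of all genes were. COX14, which couples MT-CO1 synthesis to assembly, was at 81.3 to 90.0 FPKM in Scramble, 126 to 145 FPKM under Si-FIBP#1 and 121 to 149 FPKM under Si-FIBP#2 (0.70 ± 0.08 and 0.64 ± 0.08), and COX18, which inserts part of MT-CO2 into the membrane, gave 0.68 ± 0.10 and 0.72 ± 0.10. COX11, a copper carrier for MT-CO1, and CMC2 fell with both (-0.47 ± 0.09 and -0.49 ± 0.09 for COX11, -0.49 ± 0.11 and -0.51 ± 0.11 for CMC2). Of 5 for complex V, 3 were higher and 0 lower with each siRNA by limma, and 0 were lower at an unadjusted p below 0.05, with FMC1 at 0.66 ± 0.14 and 0.69 ± 0.14 and ATPAF1 at 0.29 ± 0.07 and 0.46 ± 0.07.

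A list of 30 other mitochondrial proteins covered import, dynamics, the citric acid cycle and transport, and of these 6 were higher and 14 lower under Si-FIBP#1 and 7 higher and 10 lower under Si-FIBP#2 (medians -0.12 and -0.06), where 27.8% and 19.9%, and 31.1% and 17.7%, of all genes tested were called higher and lower. MFN2, which fuses outer membranes, was at 57.2, 59.1 and 55.4 FPKM in Scramble, at 46.9, 44.9 and 43.4 FPKM under Si-FIBP#1 and at 31.4, 29.4 and 27.5 FPKM under Si-FIBP#2 (-0.34 ± 0.06 and -0.94 ± 0.06, adjusted p = 0.00142 and 3.66e-06 by limma). IDH3A of the citric acid cycle fell by 0.67 and 0.47 on the log2 scale, while OGDH of the same cycle rose by 0.32 ± 0.05 and 0.70 ± 0.05. TOMM20 of the import channel rose by 0.46 ± 0.06 and 0.17 ± 0.06, and its call under Si-FIBP#2 (adjusted p = 0.0476) was lost in 8 of the 9 fits without a sample.

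**Figure D5:**
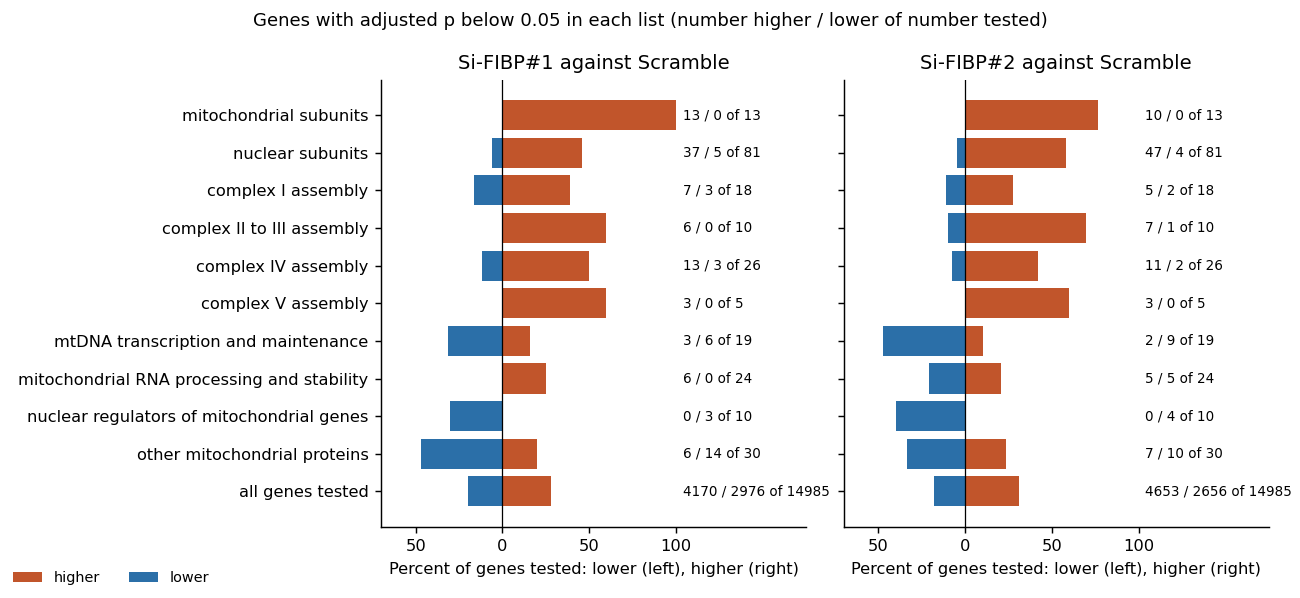
Percent of the genes tested in each list that were called lower (left of 0) or higher (right of 0) at an adjusted p below 0.05 (x axes), for Si-FIBP#1 and Si-FIBP#2, with the numbers printed beside each bar and all 14985 genes at the bottom. Subunits and assembly factors extend to the right, and nuclear regulators and factors of mitochondrial DNA extend to the left.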

How the data were processed

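Poly(A)-selected RNA of H1299 cells was sequenced as paired reads, and the submitters' processing notes name HISAT2, an aligner, and StringTie, a transcript assembler. Versions and the genome build are not given in the sources used here. The authors deposited a table of transcripts for each sample, whose values behave as FPKM that divide by an effective length. This was inferred from the values. Depth was estimated from the steps of low values.

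FPKM were summed over the transcripts of each gene. Genes that reached 1 FPKM in 3 or more of the 9 samples were tested with limma 3.58.1 (R 4.3.3) on log2(FPKM + 1), in 1 fit with a mean-variance trend, with Benjamini-Hochberg adjustment over all 14985 genes and calls at an adjusted p below 0.05. On simulated data with 200 changed genes of 14985, a change of 1 on the log2 scale was called for 173 genes in Si-FIBP#1 against Scramble and for 169 in Si-FIBP#2 against Si-FIBP#1. Most members changed by less, and 47.7% and 48.8% of all genes tested were called against Scramble. The simulation therefore does not give the recovery of those calls. Groups followed the labels. All 3 comparisons come from 1 fit, and both siRNAs share the Scramble samples. Transcript positions come from GENCODE 29 and promoters from RefSeq.

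Named genes were FIBP, the mitochondrial genes, and for each complex the most abundant nuclear members and those with the largest rise or fall, members 2-fold changed, those most different between the siRNAs, tissue forms, and the leading genes of each list. NDUFS3, ATP5MG, UQCRC1, ATP5MPL, ATP5MF-PTCD1, TFAM, TFB2M, GABPA and YY1 fall outside that rule and were named after their values were seen. The alternatives were not run for them singly, nor for the cell markers, which were a list of their own. The members and lists were chosen with earlier results of these data known. Alternatives were other scalings, pseudocount, filters, annotated transcripts alone, a replicate block, the 2 groups compared alone, and leaving out each sample.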

Additional observations from a re-analysis of the deposited data

Results flagged for a closer look

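A direct test of Si-FIBP#2 against Si-FIBP#1 (limma, n = 3 a group, adjusted p below 0.05 over all genes) called 27 members, and the 12 with the smallest adjusted p are given here as log2 differences. Of the 10 mitochondrial genes called, 5 are among these 12 and were lower under Si-FIBP#2, with MT-CO3 at -0.3026, MT-ND2 at -0.2893, MT-CO1 at -0.2831, MT-CO2 at -0.2829 and MT-ATP6 at -0.2447. SDHD at -0.7879 and NDUFB10 at -0.6617 were also lower, each having fallen with Si-FIBP#2 against Scramble. CYC1 at 0.3647 and COX8A at 0.2218 were higher, each having fallen with Si-FIBP#1 against Scramble. ATP5IF1 at 0.3547, COX5A at 0.333 and COX6B1 at 0.238 were higher, each having risen with Si-FIBP#2 against Scramble. In groups of 3 samples no outlying sample was looked for.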

How the results depend on the processing

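Of 140 named gene and comparison calls, 107 were kept under every alternative tried, 33 were lost under 1 or more and 0 changed direction. Without a filter on low genes, members called between the siRNAs went from 27 to 14, and leaving out 1 sample gave 14 to 29, with 14 without Si-FIBP#1 replicate 1, 16 without Si-FIBP#1 replicate 2 and 14 without Si-FIBP#2 replicate 3. Without each of these samples 5.37% to 5.72% of all genes were called higher and 3.14% to 3.5% lower, against 9.58% and 5.8% with all samples. Leaving out 1 sample gave 48 to 60 calls for Si-FIBP#1 and 53 to 61 for Si-FIBP#2. For Si-FIBP#1 the mitochondrial median log2 fold change was 0.4274 under TPM scaling and 0.3935 under median ratio scaling, and the nuclear median was 0.1074 and 0.07356, with 0.123 to 0.1965 when 1 sample was left out. For Si-FIBP#2 median ratio scaling gave 0.1818 for the mitochondrial and 0.09267 for the nuclear genes, and scaling to nuclear genes gave 0.2525 for the nuclear genes. Between the siRNAs TPM scaling gave a nuclear median of 0.1242, with 22 nuclear genes higher and 4 lower. Median ratio scaling gave 0.03681, with 7 higher and 8 lower, against 11 and 6 without rescaling. The median of all genes moved too, to 0.08021 under TPM scaling and 0.002467 under median ratio scaling, from 0.03963 without rescaling. The mitochondrial share of FPKM in Scramble, Si-FIBP#1 and Si-FIBP#2 was 10.64%, 14.76% and 12.91% with annotated transcripts alone, 4.534%, 6.544% and 5.619% when weighted by length, and 6.373%, 8.996% and 7.875% without the 2 shortest genes, a setting chosen after seeing the data. The causes of these shifts were not tested.

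Samples with the same replicate number did not deviate together (correlations of -0.0568 to 0.103), so the numbers were not taken as pairs. A replicate block gave 55, 61 and 28 members called in the 3 comparisons, against 55, 61 and 27 without it. The block ended the calls of NRF1 under Si-FIBP#1 (adjusted p = 0.0744 by limma), of MT-ND1 and COX4I1 under Si-FIBP#2 (0.0549 and 0.0571) and of MT-ND4 and FASTKD5 between the siRNAs (0.0686 and 0.0634), and of no other gene named by rule. The files hold no read counts, so the counting error of genes with low FPKM was not modelled.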
